A study of Mus musculus with 8 samples.

Results

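The Myc domain was taken as the stretch of mouse chromosome 15 from 200 kb before to 2 Mb after the Myc start site (GRCm38, chr15:61785391-63985391), which holds Myc, the long non-coding RNA gene Pvt1 and the far downstream blood enhancers. A peak belonged to the domain when its summit lay in this stretch. The 8 peak lists placed 610 of their 767727 peaks there, and overlapping peaks of different lists were merged into 150 regions of 174718 in the genome. Of these 150 regions, 34 had a peak in all 8 lists (22.7%, against 27.4% of all regions) and 48 had a peak in 1 list only (32%, against 27.6%).

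The lists come from ATAC-seq, which marks open DNA by where the Tn5 transposase can cut it, in B3 cells. B3 is a mouse pre-B cell line, and all lists carry the same transduced Ikaros-ERt2, a fusion of the zinc finger factor Ikaros (Ikzf1) that enters the nucleus when 4-hydroxytamoxifen (4-OHT) is added. Untreated cells (0 h) were compared with cells after 30 min, 1 h and 2 h of 500 nM 4-OHT, and each of these 4 groups has 2 lists. The 0 h cells had no 4-OHT or solvent, so an effect of the drug and one of Ikaros cannot be told apart, and nothing in the labels says that replicates were separate cultures, so p-values measure the spread between these lists.

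Myc encodes a basic helix-loop-helix leucine zipper factor that pairs with Max and drives growth, ribosome production and entry into the cell cycle. The DNA downstream of Myc is poor in coding genes and long known to hold enhancers that act on Myc over large distances, each in a limited set of tissues, among them a Notch-responsive T cell enhancer and a cluster of blood enhancers. Pvt1 starts shortly after Myc, and its gene body also holds enhancers. No region here was matched to those named elements. Ikaros binds words built on a GGAA or GGGA core, which it shares in part with ETS factors, and it can open or close chromatin through its partners.

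A region is described in each list by its fold, its percentile and its recovered fragments, all from the peak's own row. The fold is the caller's enrichment of the summit over the local background. The percentile is the rank of that fold among all peaks of the list. The recovered fragments are the whole number of fragments over the summit that the fold and its p-value together imply. The median peak of a list had 11 to 14 fragments at its summit, and the background ran from 0.26 to 0.405 fragments per base, so single weak regions rest on few molecules. Start sites of pre-B genes were open as the label implies, with 7 to 8 of 8 markers having a peak within 1 kb in each list (8 in both 0 h lists, 7 in both 2 h lists). Peaks were listed at Vpreb1 in 4 lists and at Rag1 in 7, and the other 6 pre-B markers had one in all 8. T cell markers were open in 0 to 3 of 5, myeloid markers in 0 of 5, erythroid markers in 0 to 2 of 4 and fibroblast or epithelium markers in 1 to 2 of 5, where Col1a1 had a peak in all 8 lists. T cell markers were open in 1 and 0 cases at 0 h and in 3 and 2 at 2 h, and their part in the results was not tested.

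At 2 h of 4-OHT, 4 of the 34 tested regions had fallen in rank against 0 h and 0 had risen (limma, Benjamini-Hochberg adjusted p under 0.01). All 4 lay over 1.2 Mb downstream of Myc, at +1285.1, +1425.7, +1634.8 and +1983.9 kb. The sequences of 3 of them, 200 bases around the summit, are printed here beside 3 other regions of the far downstream stretch. They are shown so that core words can be compared between regions that fell and regions that stayed open. Of the last 3, the one at +1663.0 kb lost fragments without reaching the threshold on rank, and those at +1616.3 and +1672.8 kb were among the 5 strongest of the domain at 0 h and stayed strong. The letters are from RefSeq's GRCm38.p6 genome, plus strand, and capitals mark the Ikaros core words, GGAA or GGGA on either strand.

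+1285.1 kb, chr15:63270382-63270581: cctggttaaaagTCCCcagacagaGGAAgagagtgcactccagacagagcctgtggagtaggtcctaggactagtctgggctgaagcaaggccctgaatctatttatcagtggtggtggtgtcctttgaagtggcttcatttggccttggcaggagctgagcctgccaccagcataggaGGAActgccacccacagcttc
+1425.7 kb, chr15:63411036-63411235: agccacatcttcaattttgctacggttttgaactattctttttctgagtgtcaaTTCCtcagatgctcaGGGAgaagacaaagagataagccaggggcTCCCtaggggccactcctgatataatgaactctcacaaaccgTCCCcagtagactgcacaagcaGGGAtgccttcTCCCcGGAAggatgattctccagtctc
+1983.9 kb, chr15:63969185-63969384: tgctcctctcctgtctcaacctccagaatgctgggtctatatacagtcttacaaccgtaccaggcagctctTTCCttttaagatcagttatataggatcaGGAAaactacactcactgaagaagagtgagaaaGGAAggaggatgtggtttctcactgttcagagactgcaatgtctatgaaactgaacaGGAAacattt
+1663.0 kb, chr15:63648280-63648479: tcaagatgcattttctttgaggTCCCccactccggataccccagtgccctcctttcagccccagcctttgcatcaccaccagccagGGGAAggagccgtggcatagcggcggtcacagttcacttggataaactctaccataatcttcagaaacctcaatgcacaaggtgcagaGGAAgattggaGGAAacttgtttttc
+1616.3 kb, chr15:63601632-63601831: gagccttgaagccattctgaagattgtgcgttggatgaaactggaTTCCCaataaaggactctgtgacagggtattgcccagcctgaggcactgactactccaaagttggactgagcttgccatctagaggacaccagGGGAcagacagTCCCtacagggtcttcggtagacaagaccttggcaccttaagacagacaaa
+1672.8 kb, chr15:63658088-63658287: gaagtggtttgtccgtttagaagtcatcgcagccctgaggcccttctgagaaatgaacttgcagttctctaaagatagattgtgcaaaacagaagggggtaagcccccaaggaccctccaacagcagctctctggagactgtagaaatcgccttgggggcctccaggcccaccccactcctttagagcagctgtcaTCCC

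The 3 printed regions that fell held 3, 7 and 4 core words in that order. The region at +1663.0 kb held 5, the one at +1616.3 kb held 4 and the one at +1672.8 kb held 1. So the counts of printed regions that fell and of those that stayed open overlapped. The longer word GGGAA on either strand, which contains 2 overlapping core words, occurred once each at +1663.0 and +1616.3 kb and in none of the other 4 printed regions. Core words are common: 96.8% of all 174718 windows of 200 bp around a summit held at least 1, as did 143 of the 150 domain windows (95.3%).

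**Figure D1:**
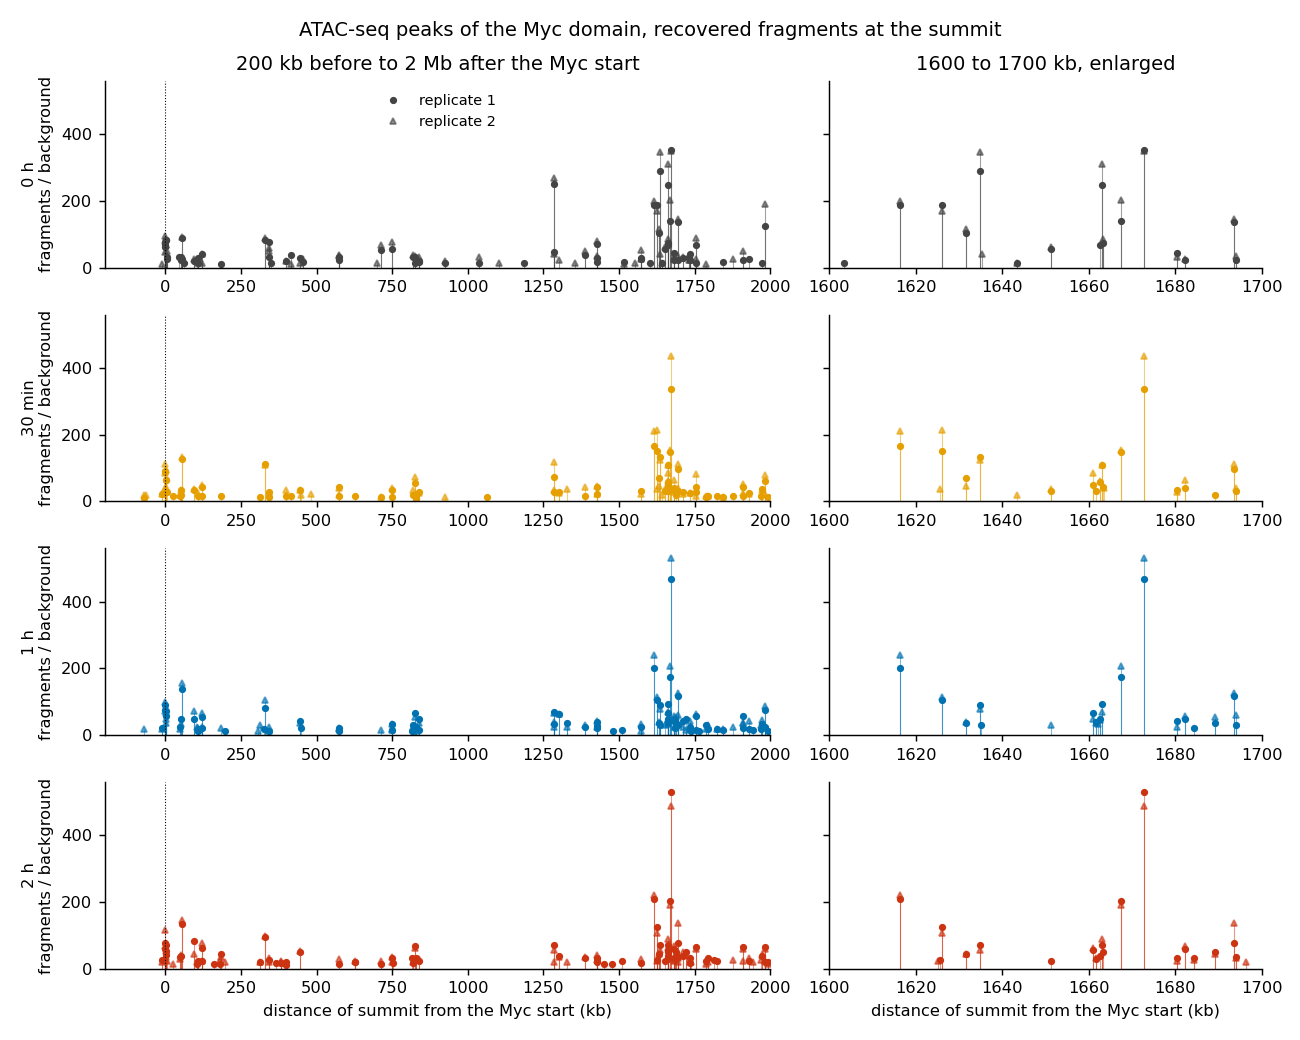
Recovered fragments at the summit divided by the list's own background (y axis, no unit), against distance of the summit from the Myc start in kb (x axis), in 4 rows for 0 h, 30 min, 1 h and 2 h; circles are replicate 1 and triangles replicate 2, and the right column enlarges 1600 to 1700 kb. Tall lines at +1285.1, +1634.8, +1663.0 and +1983.9 kb at 0 h are short at 1 h and 2 h, while those at +1616.3 and +1672.8 kb stay tall.

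The far end held the most regions of any interval, though the intervals differ in length. Of the 150 regions, 59 lay from 1.5 to 2 Mb downstream, 17 from 1 to 1.5 Mb and 22 from 500 kb to 1 Mb. Nearer to Myc, 36 lay from 50 to 500 kb, 8 from 1 to 50 kb and 3 within 1 kb. The 200 kb before Myc held 5. Summits lay in introns in 103 regions, between genes in 42 and in exons in 5. The long non-coding RNA gene Gm41335, which spans much of the far end, held 48 of the summits and 16 of the 34 tested regions, and Pvt1 held 26 and 4. In each list the domain took 0.0761% to 0.0835% of the peaks. A summed 951 and 715 of the 1671 and 1206 domain fragments of the 0 h lists came from beyond 1.5 Mb.

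The 5 regions of highest mean percentile at 0 h all lay beyond 1.2 Mb, at +1616.3, +1285.1, +1626.0, +1672.8 and +1983.9 kb. Of these, 2 fell at 2 h (+1285.1 and +1983.9 kb), and the other 3 did not pass the test at any time. The 5 were picked on the 0 h lists that the test also uses, which favours a fall, so these counts are a description.

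The region at +1285.1 kb (chr15:63270350-63270684) lies in introns of the long non-coding RNA genes Gm41335 and Gm49014. It had 98 and 70 fragments untreated, 30 and 36 after 30 min, 25 and 21 after 1 h, and 24 and 18 after 2 h. Both 0 h lists stood above all 6 lists with 4-OHT, and its percentile went from 99.6 and 98.9 at 0 h to 84.8 and 75.2 at 2 h. On the scale of the test, the normal score of the rank, where 1 unit is 1 SD across the tested regions of a list, the shift was -1.30 ± 0.31 (SE, 2 lists against 2) at 30 min, with limma adjusted p = 0.0619. It was -1.93 at 1 h (limma adjusted p = 0.00535) and -1.96 at 2 h (0.00338), so that the call came at 1 h.

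The region at +1425.7 kb (chr15:63411075-63411215), also in an intron of Gm41335, was at its later level by 30 min. Its fragments were 28 and 21 untreated, 9 and 7 after 30 min, 10 and 8 after 1 h, and 8 and 8 after 2 h. The groups before and after 4-OHT did not overlap, and the lists after 4-OHT held between 7 and 10 fragments at every time. Its shift was -2.06 ± 0.25 at 30 min (limma adjusted p = 0.0159), -1.73 at 1 h (0.0037) and -1.85 at 2 h (0.00197).

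The region at +1634.8 kb (chr15:63619948-63620383) had its lowest values at 2 h. It had 113 and 90 fragments untreated, 54 and 38 after 30 min, 33 and 24 after 1 h, and 24 and 18 after 2 h, so that the mean was lower at each later time. Its shift was -0.63 ± 0.28 at 30 min (limma adjusted p = 0.246), -1.22 at 1 h (0.0186) and -1.62 at 2 h (0.00421). No step between successive times passed the test for it or for any other region of the domain.

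The region at +1983.9 kb (chr15:63969109-63969443) lies in an intron of the protein-coding gene Fam49b, at the far edge of the domain. Its fragments were 49 and 50 untreated, 25 and 24 after 30 min, 27 and 27 after 1 h, and 22 and 19 after 2 h. The 0 h lists stood above all others, and the 3 later times lay close together. Its shift was -1.38 ± 0.27 at 30 min (limma adjusted p = 0.0365), -1.22 at 1 h (0.0178) and -1.60 at 2 h (0.00432).

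The calls in the domain can be read against the genome. At 2 h, 4 of 34 is 11.8%, where 4.71% of the 47875 tested regions were called lower and 2.28% higher. At 1 h, 2 of 34 were lower (5.88%, against 2.51%) and 0 were higher (against 1.1%). At 30 min no region of the domain or of the genome passed (0% in either direction), while 9 of 34 in the domain had an unadjusted p under 0.05 (26.5%, against 19.4%). The same count was 17 of 34 at 1 h (50%, against 30.4%) and 14 of 34 at 2 h (41.2%, against 34.5%). With the adjusted p set at 0.05 instead, the domain had 2 lower and 0 higher at 30 min (against 1.49% and 0.702% of the genome), 6 lower and 3 higher at 1 h (against 8.18% and 5.74%), and 7 lower and 5 higher at 2 h (against 11.1% and 8.34%). The median shift over the 34 regions was -0.11 at 2 h, beside 0.06 over all tested regions. Of the 34 shifts 20 were negative, beside 22336 of the 47875 over the genome. Between 30 min and 1 h and between 1 h and 2 h, limma called 0 regions of the domain and 0 of the genome (0% each); 4 and 2 of the 34 had an unadjusted p under 0.05 (11.8% and 5.88%, against 11.3% and 5.91% of the genome). Each comparison with 0 h uses the same 2 lists of untreated cells. Leaving out either of them left a lone list in that group and ended all calls in the domain. Calls over the whole genome ended or fell strongly as well, so this loss is not particular to the domain.

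**Figure D2:**
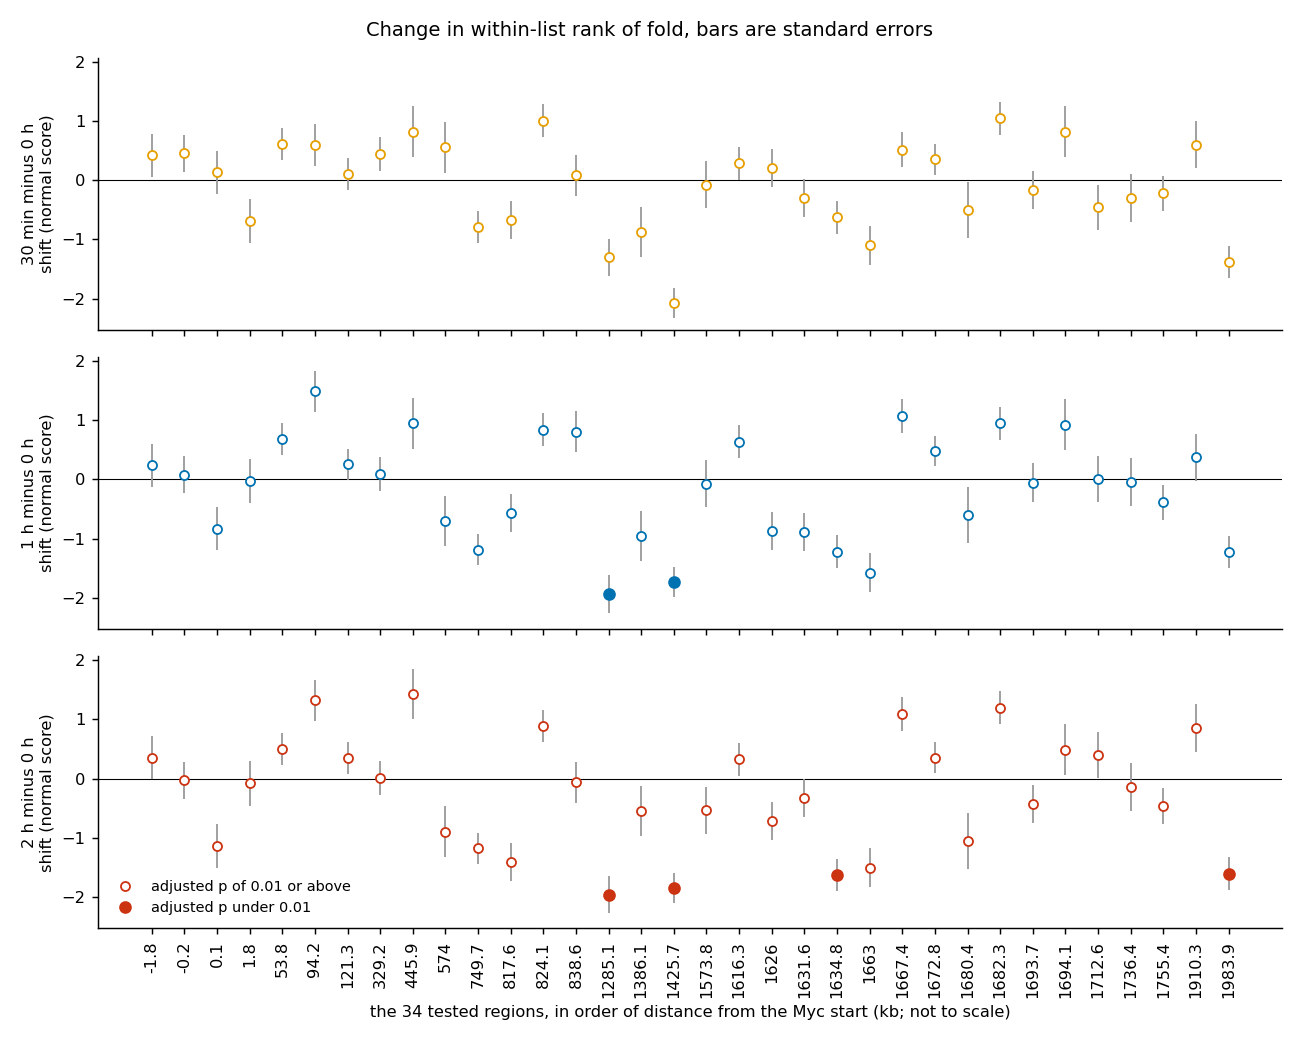
Shift of each of the 34 tested regions against 0 h in normal score units (y axis, bars are standard errors) at 30 min, 1 h and 2 h, ordered by distance from the Myc start in kb (x axis, not to scale); filled circles have an adjusted p under 0.01. The filled points are at +1285.1 and +1425.7 kb at 1 h, and at these 2 and +1634.8 and +1983.9 kb at 2 h, and the 5 regions from +53.8 to +445.9 kb lie above 0 at all 3 times.

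At the Myc start itself (chr15:61985383-61985709, summit in its first exon), the 0 h lists had 32 and 18 fragments. The lists had 26 and 29 after 30 min, 21 and 15 after 1 h, and 18 and 11 after 2 h. Percentiles were 43.6 and 35.5 at 0 h, 44.4 and 59.4 after 30 min, 30.0 and 14.5 after 1 h, and 25.2 and 4.8 after 2 h. Both 30 min lists thus stood above both 0 h lists, 1 of them by under 1 point, and the lists of 1 h and 2 h stood below them. The shift was 0.13 ± 0.37 at 30 min (limma adjusted p = 0.888), -0.83 at 1 h (0.159) and -1.13 at 2 h (0.0552), none of which passed the test.

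The other tested regions near the start had shifts closer to 0 at 2 h, and a difference between regions was not tested. The region just upstream (chr15:61984946-61985269, summit 0.2 kb before the start) had 26 and 21 fragments untreated and 20 and 22 after 2 h, with a shift of -0.03 (limma adjusted p = 0.958). The region 1.8 kb before the start had 30 and 25 fragments untreated and 26 and 37 after 2 h, and its shift was 0.35. It is the 1 tested domain region that held the CTCF word, a form of the recognition sequence of the insulator factor CTCF searched on both strands; 3 of all 150 regions held it (2%), against 4.43% of all regions in the genome. The region in an intron of Myc at +1.8 kb had 32 and 18 fragments untreated and 24 and 17 after 2 h, with a shift of -0.08. A small region 0.9 kb before the start was listed with 24 and 12 fragments at 0 h and otherwise in 1 list of 30 min with 12, in neither list of 1 h and in 1 list of 2 h with 8.

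Among the 11666 tested regions at start sites, the 5 whose within-list rank followed that of the Myc start most closely over the 8 lists were at Tmem170b (Pearson r = 0.973), Inf2 (0.951), Birc2 (0.949), Fen1 (0.944) and Ubash3b (0.940). Fen1 encodes a flap endonuclease of DNA replication, and Birc2 an inhibitor of apoptosis. These are the top values of 11666 over 8 lists and are given as a description.

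The tested regions in and around Pvt1 had positive shifts, and regions of Pvt1 that could not be tested went both ways. Of 8 Pvt1 regions listed in both 0 h lists, 1 was in neither 2 h list (16.6% of all regions). Of 12 listed in both 2 h lists, 6 were in neither 0 h list (20.5% of all regions). The Pvt1 start region (chr15:62037920-62038048) was listed with 9 fragments in 1 of the 0 h lists and not in the other, then with 14 and 10 after 30 min, 18 and 10 after 1 h, and 13 and 13 after 2 h. It was not tested, as 1 list lacked it. A stronger region next to it, at +53.8 kb in an intron, had 35 and 24 fragments untreated, 52 and 41 after 30 min, 51 and 49 after 1 h, and 45 and 46 after 2 h, with a shift of 0.50 (limma adjusted p = 0.207). All 5 tested regions from 50 to 500 kb had a positive shift at 30 min, 1 h and 2 h, with a median of 0.50 at 2 h. These comparisons share the 0 h lists, and at +329.2 kb the shift was 0.10 at 1 h and 0.01 at 2 h (SE 0.29). Over all 47875 tested regions, 22918, 22435 and 22336 shifts were negative at the 3 times. None of these 5 regions passed the test. The region at +342.9 kb in Pvt1, named after its values were seen, had 30 and 15 fragments untreated, and afterwards was listed in 1 list of each time, with 11 at 30 min, 4 at 1 h and 6 at 2 h.

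The largest shift at 1 h among these was at +94.2 kb, in an intron of Pvt1 (chr15:62079521-62079713). Its fragments were 8 and 7 untreated, 14 and 11 after 30 min, 18 and 23 after 1 h, and 28 and 14 after 2 h. The 0 h lists were the lowest, and the 2 lists of 2 h differed from each other by more than those of any other time. The shift was 1.49 ± 0.35 at 1 h (limma adjusted p = 0.0214) and 1.32 at 2 h (0.0262). The region at +445.9 kb, between genes, had 11 and 4 fragments untreated and 17 and 17 after 2 h, a shift of 1.43, the largest of the 5 at 2 h (limma adjusted p = 0.0423), that starts from 4 fragments in 1 list.

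From 500 kb to 1.5 Mb most shifts were negative. In the interval from 500 kb to 1 Mb, 4 of 5 tested regions had a negative shift at 2 h, and in that from 1 to 1.5 Mb all 3 had. Over the genome, 22336 of 47875 tested regions had a negative shift at 2 h. The region at +749.7 kb in the long non-coding RNA gene Gm41333 went from 22 and 20 fragments untreated to 11 and 11 after 2 h, and its shift of -1.18 had a limma adjusted p of 0.0137. The one at +817.6 kb went from 12 and 10 to 6 and 6 (shift -1.41, limma adjusted p = 0.0134). Its neighbour at +824.1 kb had a shift of the opposite sign, going from 12 and 9 fragments untreated to 22 and 22 after 30 min and 23 and 20 after 2 h (shift 0.89, limma adjusted p = 0.0482).

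The far cluster between +1600 and +1700 kb, an interval chosen after its values were seen, held 27 of the 150 regions and 11 of the 34 tested ones, these 11 all in Gm41335. Its regions behaved in different ways within a few kb of each other. The region at +1616.3 kb (chr15:63601585-63601874) had percentiles of 99.1 to 99.9 in all 8 lists, with 73 and 52 fragments untreated, 67 and 64 after 30 min, 74 and 75 after 1 h, and 71 and 70 after 2 h. The region at +1672.8 kb (chr15:63657789-63658733), the longest of the domain at 945 bp, had 137 and 91 fragments untreated and 179 and 155 after 2 h, with percentiles of 96.8 to 99.4 throughout. Their shifts at 2 h were 0.33 and 0.36, with limma adjusted p of 0.433 and 0.358.

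Between them lay the region at +1634.8 kb that fell, and 4 others whose values are given here by distance. The one at +1626.0 kb had 73 and 44 fragments untreated, 61 and 65 after 30 min, 39 and 36 after 1 h, and 42 and 34 after 2 h, with a shift of -0.71 at 2 h (limma adjusted p = 0.143). The one at +1663.0 kb (chr15:63648003-63648585) had 96 and 81 untreated, 44 and 33 after 30 min, 34 and 22 after 1 h, and 24 and 28 after 2 h. Its 0 h lists stood above all 6 others, and the shift was -1.50 ± 0.33 at 2 h, just outside the threshold (limma adjusted p = 0.0121).

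Its neighbour at +1667.4 kb had 54 and 53 fragments untreated and 69 and 61 after 2 h, and its percentile went from 55.8 and 70.8 to 89.8 and 91.0 (shift 1.09, limma adjusted p = 0.0271). At +1682.3 kb, beyond the longest region, fragments went from 9 and 7 at 0 h to 16 and 20 after 30 min, 18 and 18 after 1 h, and 20 and 22 after 2 h. Both 0 h lists were below all others there, and the shift was 1.20 ± 0.28 at 2 h (limma adjusted p = 0.016).

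**Figure D3:**
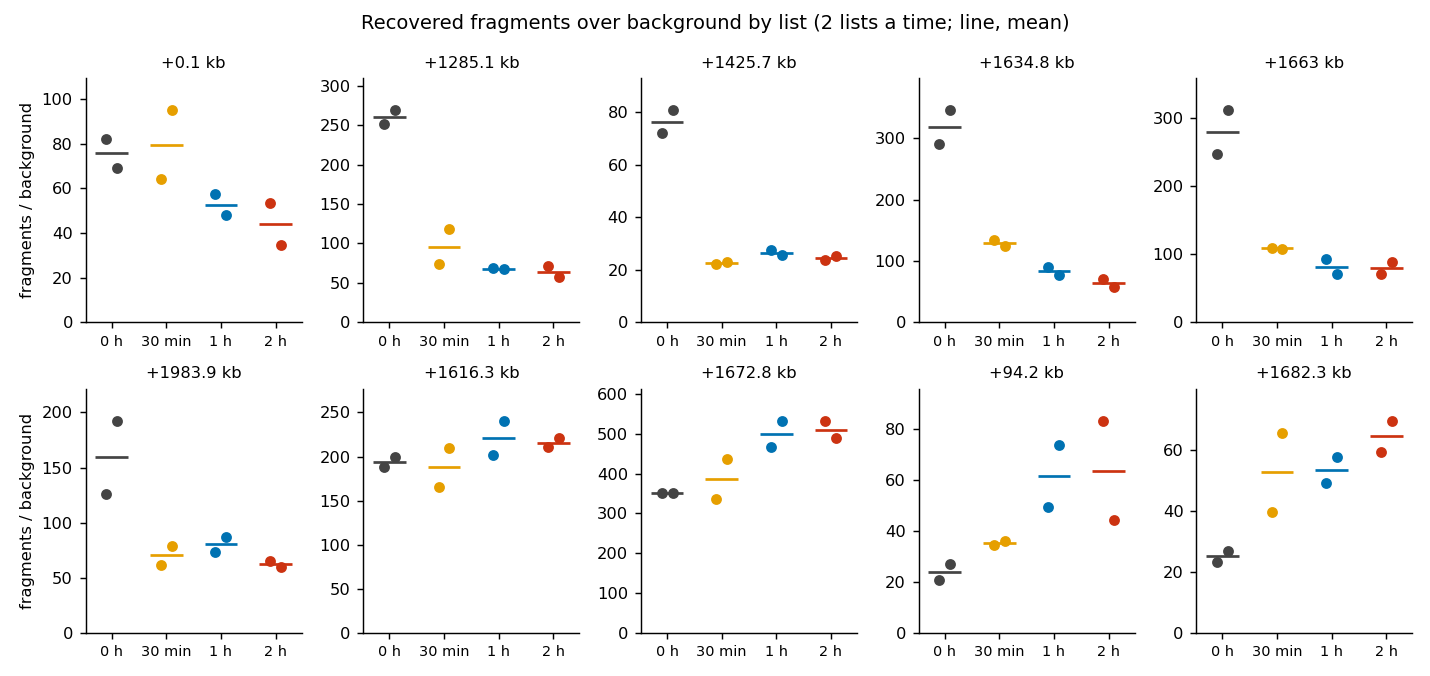
Recovered fragments over the list's background (y axis, starting at 0, own scale per panel) at 0 h, 30 min, 1 h and 2 h (x axis) for 10 regions named by distance from the Myc start; each point is 1 list and the line is the mean of 2. In the panels at +1285.1, +1425.7, +1634.8, +1663 and +1983.9 kb both 0 h points lie above all later ones, and in those at +94.2 and +1682.3 kb below all later ones.

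The fold sets a summit against a local background, and in parts of the domain, in the far cluster and outside it, that background was lower after 4-OHT as well. Peaks were called without a control, so the local background comes from the same list. It was not separated from the signal of the fallen peaks themselves. The local background that the caller used at +1634.8 kb was 3.53 and 3.13 fragments in the untreated lists and 1.01 and 0.88 in those of 2 h, a log2 change of -1.87 after each list's own background was divided out. At +1631.6 kb (chr15:63616912-63617307) it changed by -1.88. There, fragments fell from 40 and 30 at 0 h to 15 and 14 at 2 h, while the shift in rank was only -0.33 (limma adjusted p = 0.512). At +1667.4 kb the local background changed by -0.96, the shift in rank was 1.09 and the log2 change in fragments over the list's background was 0.24. Outside the far cluster, the local background changed by -1.73, -0.70 and -0.49 at the fallen regions at +1285.1, +1425.7 and +1983.9 kb. At the Myc start it changed by -0.46. Other tested regions had a rise, such as 0.80 at +121.3 kb and 0.56 at +1682.3 kb.

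With the fragments themselves on a log2 scale, divided by each list's background, the same limma fit called more of the domain. At 2 h, 6 of 34 were lower and 4 higher (17.6% and 11.8%, against 7.15% and 7.88% of the genome on that scale). At 1 h, 5 were lower and 0 higher (14.7%, against 5.16% and 4.26%), and at 30 min 4 were lower and 0 higher (11.8%, against 1.27% and 0.307%). The 6 lower ones were the 4 named above and those at +1631.6 and +1663.0 kb. The 4 higher ones were at +94.2, +445.9, +824.1 and +1682.3 kb. The 4 already lower at 30 min were at +1285.1, +1425.7, +1634.8 and +1663.0 kb. On this scale the median change of all tested regions was 0.22 at 2 h, and that of the 34 domain regions was -0.21. The largest change was at +1634.8 kb, a log2 change of -2.32 (limma adjusted p = 0.000103), followed by -2.03 at +1285.1 kb. At the Myc start the change was -0.81 (limma adjusted p = 0.0494), short of the threshold of 0.01.

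**Figure D4:**
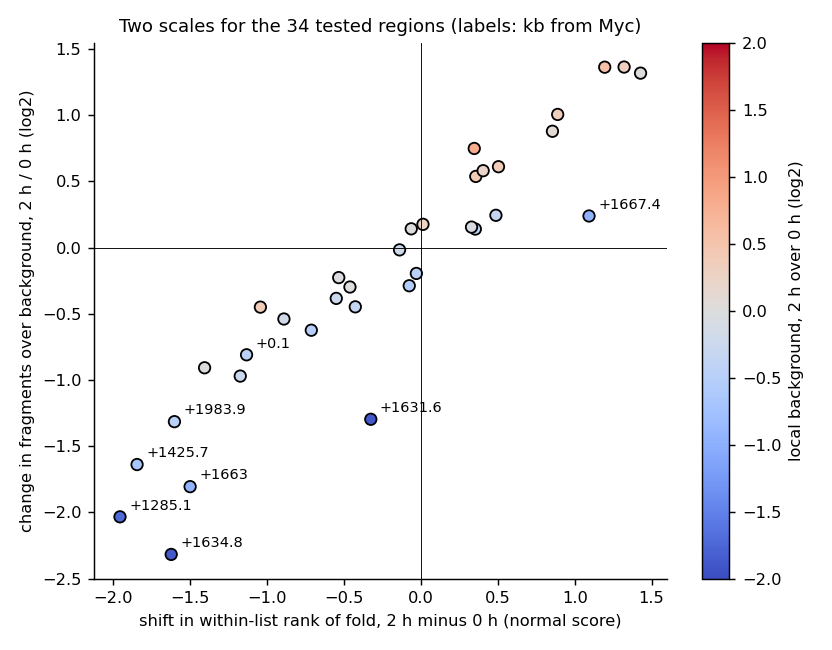
Change from 0 h to 2 h of the 34 tested regions in normal score of the within-list rank of fold (x axis) and in log2 fragments over the list's background (y axis), coloured by the log2 change in local background. Most points follow a diagonal, and the region at +1631.6 kb lies below it with a local background change of -1.88.

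Summed over the domain, fragments took a lower share of each list with 4-OHT than of either untreated list. The share of the summed summit fragments was 0.0834% and 0.0845% at 0 h and between 0.0687% and 0.0745% in the 6 lists with 4-OHT, and the groups did not overlap. An exact permutation test over the 8 lists (two-sided, 28 splits) gave p = 0.0714. This is the smallest value of the form used, which doubles the p of a single side, so it could not fall below 0.05. Single regions weigh heavily in these sums. The regions at +1285.1, +1634.8 and +1663.0 kb had 98, 113 and 96 of the 1671 domain fragments of 0 h replicate 1. In 2 h replicate 1 each of them had 24 of 1380, while the region at +1672.8 kb went from 137 to 179 between these lists. A share without the fallen regions was not tested. The share of peaks was 0.0801% ± 0.0019 (SD, n = 2) at 0 h and 0.0793% ± 0.0025 (SD, n = 6) after 4-OHT, with an exact permutation p of 0.571. In the interval from 1 to 1.5 Mb, the summed fragments of the 3 tested regions went from 141 and 104 at 0 h to 43 and 37 at 2 h, and in that from 50 to 500 kb those of 5 regions went from 102 and 69 to 143 and 133.

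Regions also appeared in and dropped out of the lists. Counting a region as lost when both 0 h lists had a peak and neither list of the later time had one, 9 of 58 regions were lost at 30 min (15.5%, against 10.9% of all regions), 16 of 58 at 1 h (27.6%, against 14.6%) and 13 of 58 at 2 h (22.4%, against 16.6%). Counted the other way, 6 of 55 were gained at 30 min (10.9%, against 10.3%), 14 of 61 at 1 h (23.0%, against 17%) and 18 of 61 at 2 h (29.5%, against 20.5%). At all 3 times, 6 of 58 regions were lost (10.3%, against 8.3%), and 4 of the 45 with a peak in all 6 lists with 4-OHT were gained (8.89%, against 6.66%). These are counts with no test, and a peak missing from a list can lie just under the caller's threshold. The weakest domain peak had 3 to 5 fragments in each list, but a peak needs more where the local background is high. At +1663.4 kb, where that background was 5.69 and 4.16 at 0 h, 29 and 22 fragments had percentiles of only 14.0 and 16.4. The regions lost at 2 h had a median of 7 fragments at 0 h, and those gained a median of 9 at 2 h.

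The 5 regions lost at 2 h with most fragments at 0 h were at +343.6, +1574.1, +572.9, +1731.5 and +415.9 kb. The one at +343.6 kb in Pvt1 had 13 and 13 fragments untreated and 5 and 6 after 30 min, and was listed in neither 1 h nor 2 h list. The one at +1574.1 kb had 11 and 14 at 0 h and was listed once afterwards, with 4 at 1 h. The region at +415.9 kb had 15 fragments in 1 of the 0 h lists and 3 in the other. A stronger region at +713.4 kb in Gm41333 (chr15:62698643-62698925), named after its values were seen, had 21 and 18 fragments untreated, was listed in no list of 30 min or 1 h, and had 7 in 1 list of 2 h, so it counts as lost at the first 2 times and not at 2 h.

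Of the regions gained at 2 h, the 5 with most fragments were at +1661.1, +1689.3, +1720.3, +184.1 and +46.9 kb. The strongest, at +1661.1 kb, lies beside the region at +1663.0 kb. It was listed in neither 0 h list, then with 20 and 26 fragments after 30 min, 24 and 15 after 1 h, and 19 and 20 after 2 h. The local background at +1663.0 kb was 5.68 and 4.15 at 0 h, and that at +1661.1 kb was 1.58 and 1.43 at 2 h. At +1662.5 kb, 26 fragments in 1 of the 0 h lists had a percentile of only 6.9. A similar number of fragments at +1661.1 kb could thus have gone unlisted at 0 h, and a rise there was not tested. The one at +1720.3 kb was first listed at 1 h, with 18 and 5 fragments, and had 17 and 13 at 2 h. The one at +46.9 kb, before the Pvt1 start, had 7 and 6 fragments after 30 min and 12 and 9 after 2 h.

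**Figure D5:**
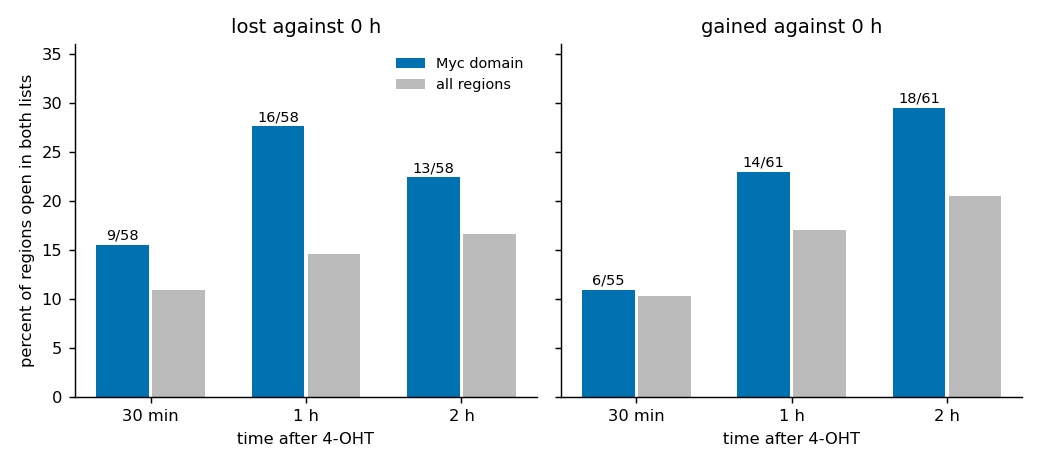
Percent of regions lost (left, of those with a peak in both 0 h lists) and gained (right, of those with a peak in both lists of the later time) against 0 h at 30 min, 1 h and 2 h, for the Myc domain (blue, counts above the bars) and all regions of the genome (grey). At 1 h and 2 h the blue bars are higher than the grey ones in both panels, at 16 and 13 of 58 lost and 14 and 18 of 61 gained.

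Lost and gained regions differed in their letters, which the choice of members did not use. The 13 lost at 2 h had 3.19 ± 1.39 core words per 100 bp (SD over regions) and the 18 gained had 1.11 ± 0.608. The highest count among the gained was 2 and the lowest among the lost 1.5 per 100 bp. Over the genome the 11581 lost regions had 3.08 ± 1.25 and the 16223 gained 1.49 ± 0.98. All 150 regions of the domain had 1.97 ± 1.26, beside 2.09 ± 1.23 over all regions. The 4 regions that fell on rank had 2.75 ± 1.19, beside 3.03 ± 1.16 for the 2256 of the genome that fell and 2.20 ± 1.18 for all tested.

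The partners and antagonists of Myc were read from the same fit, with all tested regions within 20 kb of a start site. The list of 12 genes held Max, the Mxd and Mnt repressors that compete for it, Mga, the Mlx branch, and the paralogs Mycn and Mycl. Of its 44 regions, 2 were lower at 2 h (4.55%, against 4.71% of the genome) and 1 was higher (2.27%, against 2.28%). The median shift over the 44 was 0.01, beside 0.06 over all tested regions. A region 497 bp from the start of Mnt, a Max-binding repressor, went from 67 and 40 fragments untreated to 26 and 21 after 2 h (shift -1.64, limma adjusted p = 0.00343). A region 7756 bp from the start of Mxi1, of the same class, went from 35 and 19 to 8 and 9 (shift -2.06, limma adjusted p = 0.00376). The region that rose lay 9724 bp from the start of Mxd3, with 14 and 15 fragments untreated and 52 and 66 after 2 h (shift 2.03, limma adjusted p = 0.00425).

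Among 15 genes that Myc is well known to drive, such as Ncl and Npm1 of the nucleolus, Odc1 of polyamine synthesis and Ldha of glycolysis, 55 regions were tested. At 2 h, 1 was lower (1.82%, against 4.71%) and 1 was higher (1.82%, against 2.28%), both near Cdk4, a G1 cyclin-dependent kinase. They lay 6749 bp (the lower one) and 11616 bp (the higher one) from the Cdk4 start. The lower one had 60 and 45 fragments untreated and 16 and 14 after 2 h (shift -2.55, limma adjusted p = 0.00106). The higher one had 59 and 45 and then 99 and 84 (shift 1.34, limma adjusted p = 0.00678). The start region of Nop58, a nucleolar protein, was lower at 1 h (limma adjusted p = 0.00513) and at 2 h had 38 and 41 fragments, beside 76 and 55 at 0 h (limma adjusted p = 0.0106).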

How the data were processed

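The data were 8 lists of ATAC-seq peaks, 2 for each of 4 times. According to the study's methods and the submitters' processing notes, the authors aligned reads with BWA 0.7.17, shifted them for Tn5 with deepTools 2.3.5, kept fragments of up to 120 bp and called peaks per library with MACS2 2.1.2, without a control. One methods sentence names a human build; the peaks lie on mouse chromosomes and the notes give GRCm38. The deposited fold (a ratio of summit to local background) and the deposited −log10 p-values and −log10 q-values were used. The authors' count table was not used here, so the test design does not follow the authors'.

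Peaks overlapping by any amount were merged. Fragments were solved from fold and p (relative tolerance 0.001, whole for 100% of peaks per list to the precision printed; 1 peak in the tested set had no solution and its region was left out on that scale). Within-list ranks of fold, as normal scores, over the 47875 regions that every list called were fitted with limma 3.58.1 (4 groups, no covariate) and adjusted by Benjamini-Hochberg. Genes are from GENCODE M21. The limma step and the fragment recovery were tested on simulated data. Library depth is not given in the sources used here; the lists held 85903 to 103897 peaks. No counting interval is printed, since PCR copies are not independent molecules.

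Regions were named by a rule: the Myc and Pvt1 start regions, all called regions, the 5 strongest at 0 h, the 5 largest falls and rises in percentile, and the 5 lost and 5 gained with most fragments; genes of lists were named when a region passed. Neighbours of these were described as well, chosen after their values were seen. The members and lists were chosen with earlier results of these data known. Replicate numbers did not pair the lists (correlations of replicate differences 0.017 to 0.040). One marker gene and 1 sequence are not reported here.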

Additional observations from a re-analysis of the deposited data

Results flagged for a closer look

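At the region of the Myc start, 0.1 kb after the start site, both 30 min lists had a higher percentile than both 0 h lists, 1 of them by under 1 point, and both 2 h lists had a lower one. The mean percentile at 2 h was 36.9 points below that at 30 min (-36.9). Neither change against 0 h passed the limma test (adjusted p = 0.888 at 30 min and 0.0552 at 2 h), the fragments at 30 min, 26 and 29, lay within the 0 h range of 18 to 32, and the difference between the changes at 30 min and 2 h was not tested.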

How the results depend on the processing

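The limits are those of 2 lists a time, and a list that lacks a peak gives no value. Leaving out a list assumes that the lone list of its time varies like the others. Regions lower at 2 h then numbered 0 to 4, and at 1 h 0 to 2. Without either 0 h list no region of the domain was called at any time, without either 1 h list the 1 h calls ended, and without either 2 h list the 2 h calls ended; without either 30 min list all stayed in number. Where calls in the domain ended, those over the genome ended or fell strongly too. Lost regions ran from 13 to 19 at 30 min, 18 to 26 at 1 h and 18 to 24 at 2 h. Gained ones ran from 9 to 19, 18 to 29 and 22 to 32. The rule is looser here, since 1 list stands for 2. All these counts thus lie above the main ones of 9, 16 and 13 lost and 6, 14 and 18 gained. They were not set beside shares over the genome. Replicate block: with the replicate number as a term, 0 regions were lower at 30 min, 2 at 1 h and 4 at 2 h, and 0 were higher, and it changed no call count in the domain.

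At an adjusted p under 0.05, 2 regions were lower at 30 min, 6 lower and 3 higher at 1 h, and 7 lower and 5 higher at 2 h. With log2 fragments, lower regions numbered 4, 5 and 6 at the 3 times and 4 were higher at 2 h. Centred on the median, 3, 7 and 7 were lower and 1 higher at 2 h. That centred scale called 622, 3174 and 4489 of 47874 regions of the genome lower, and 2602 higher at 2 h. Ranking among all peaks gave 1 lower at 1 h and 1 higher at 2 h, ranking by −log10 p 4 lower at 1 h, and summit windows 1 lower at 1 h. In the same order, the counts over the genome were 489, 1199 and 1354 of 47875, and 1164 of 47496. With regions in at least 2 lists, 9 of 102 were lower at 1 h, and 11 lower and 1 higher at 2 h. Of the 126504 such regions of the genome, 5482 were lower at 1 h, and 7933 lower and 2990 higher at 2 h. Peaks of −log10 q of at least 5 gave 1 lower at 30 min, 4 lower and 1 higher at 1 h and 1 higher at 2 h. They gave 8 lost and 9 gained at 1 h and 7 and 10 at 2 h. Of 37974 regions of the genome, these peaks gave 65 lower at 30 min, 1203 lower and 556 higher at 1 h, and 1012 higher at 2 h. A mean trend with a robust prior gave 2 lower at 30 min, 5 lower and 1 higher at 1 h, and 1 higher at 2 h. Among all 47875 tested regions that setting gave 209 lower at 30 min, 2121 lower and 1486 higher at 1 h, and 2256 higher at 2 h. The cause of these differences was not tested.

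Across the genome at 2 h, 67.4% of calls were lower; ranking among all peaks made this 52.1%, log2 fragments 47.6%, and leaving out a 2 h list 86.5% or 91.1%. Named regions kept the sign of their 2 h shift in all 283 refits; 17 of these ended a call and 16 added one. Most of these regions were named for their fall or rise in the same lists, which favours a kept sign. The difference in the share of peaks between untreated and treated lists was 0.000836 percentage points. It ran from -0.000519 (without 0 h replicate 2, a reversal) to 0.00219 when a list was left out. The difference in the share of fragments, 0.0125, ran from 0.012 to 0.0131. Counting only GGGAA on either strand gave 0.283 words per 100 bp in the domain. For the Myc network, 5 kb around start sites left 1 lower and 0 higher, and an adjusted p under 0.05 gave 6 and 2; for the Myc targets these were 0 and 0, and 5 and 3.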
